A study of Mus musculus with 6 samples.

Results

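The glucocorticoid receptor Nr3c1 and 7 genes tied to its signalling were followed in thymus that over-expressed miR-181d. The members were Nr3c1, the ligand-supply enzymes Cyp11a1 and Hsd11b1, and the response genes Tsc22d3, Fkbp5, Sgk1, Klf9 and Per1. All probes that the platform annotation lists under these symbols were taken, which gave 17 of 45281 probes for 8 of 19057 listed genes. Of these, 14 probes were kept for testing because their detection p was under 0.05 on at least 3 arrays, and each of the 8 genes had at least 1 kept probe. Over the whole array 18352 probes were kept, for 9782 genes.

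RNA from whole thymus was hybridized to Illumina MouseWG-6 v2 arrays, with 1 array for each of 3 miR-181d Tg-38 mice and 3 wild type control (WT) mice. Both groups were on the C57BL/6 background, and no treatment is given for either. In Tg-38 mice, a single transgenic line, the VA-hCD2 cassette drives the miR-181d precursor in thymocytes and peripheral T cells, so the epithelium and other stroma of the thymus are not the cells the cassette targets. By the study's methods mice of 5 to 8 weeks were used, with no age given for each mouse, and the labels do not say whether the replicates shared a litter or a day, so the p-values measure only the spread between these samples. The labels give the cell type as thymocyte, but the organ also holds epithelium, macrophages, dendritic cells and blood. The thymocyte genes Cd4, Cd8b1, Rag1 and Cd3e and the epithelial genes Aire and Krt14 were all detected on all 6 arrays. The thymocyte gene Cd8a and the epithelial genes Foxn1, Epcam and Krt5 were not detected on enough arrays to be kept.

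Glucocorticoids enter the cell and bind the receptor, which is held by a chaperone complex in the cytoplasm, moves to the nucleus and binds DNA at palindromic response elements. There it switches on genes such as Tsc22d3 and Fkbp5 and represses inflammatory genes. The thymus is a classical target tissue: immature CD4+CD8+ double positive (DP) thymocytes die readily when glucocorticoid rises during stress. Thymic cells can also make or reactivate the hormone locally, through steroid synthesis that begins with Cyp11a1 and through the reductase Hsd11b1.

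The transgene product and its relatives are shown because they share the seed through which a miRNA pairs with its targets. The mature sequences are those of RefSeq, 5′ to 3′, with the seed (bases 2 to 8) in capitals. No probe on the array is listed under miR-181d, so its level was not measured here. 
miR-181d-5p: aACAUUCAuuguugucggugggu
miR-181b-5p: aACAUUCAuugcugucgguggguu
miR-181a-5p: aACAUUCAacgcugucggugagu
miR-181c-5p: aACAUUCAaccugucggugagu
In GRCm38.p6, miR-181d-5p lies at chr8:84178759-84178781 and miR-181c-5p at chr8:84178924-84178945, both on the minus strand, while miR-181a and miR-181b each come from a locus on chromosome 1 and another on chromosome 2. The seed ACAUUCA was shared by these 4 of 1679 mature mouse miRNA names in the table. Over its first 23 bases miR-181b-5p differed from miR-181d-5p by C12U alone, counted from 1 at the 5′ end with the base of miR-181b first. Matches of this seed in the transcripts of the members were not searched here.

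No member probe passed the adjusted threshold. In the two-sided limma comparison of Tg-38 with WT, adjusted for all 18352 kept probes by Benjamini-Hochberg, 0 of 14 member probes had an adjusted p under 0.05, against 1.1% of all kept probes (0.801% higher and 0.3% lower). Without adjustment, 7 of 14 member probes had a p under 0.05, against 17% of all kept probes. The 7 probes belonged to 4 genes, with 5 probes lower in Tg-38 (3 of Hsd11b1 and 2 of Cyp11a1, against 8.48% of all kept probes) and 2 higher (Sgk1 and Klf9, against 8.55%). All 7 differed by over 1.2-fold, as did 16.3% of all kept probes at this p. In the same 7 probes the normalized values of the 3 Tg-38 mice did not overlap those of the 3 WT mice, which was the case for 22.6% of all kept probes (11.4% higher and 11.2% lower). Probes of one gene read RNA of that gene, not always the same transcript, and are not independent, so 4 of 8 genes is the plainer count. Among all 9782 genes, each by its brightest kept probe, 17.5% had an unadjusted p under 0.05. The members were chosen with earlier results of these data known, so no enrichment is read from these counts. Cyp11a1 probe 2 was detected in 3 of 3 WT mice but 1 of 3 Tg-38 mice, so it met the filter through the group where it was higher, and without it the counts were 6 of 13 probes, 4 lower and 2 higher. By the methods' t-test, 6 member probes had an unadjusted p under 0.05, against 14.7% of all kept probes, and 0 passed after adjustment, against 1 of all kept probes. Groups of 3 mice limit how precisely any probe is measured: permuting the mice exactly, the smallest two-sided p for 1 probe is 0.1.

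**Figure D1:**
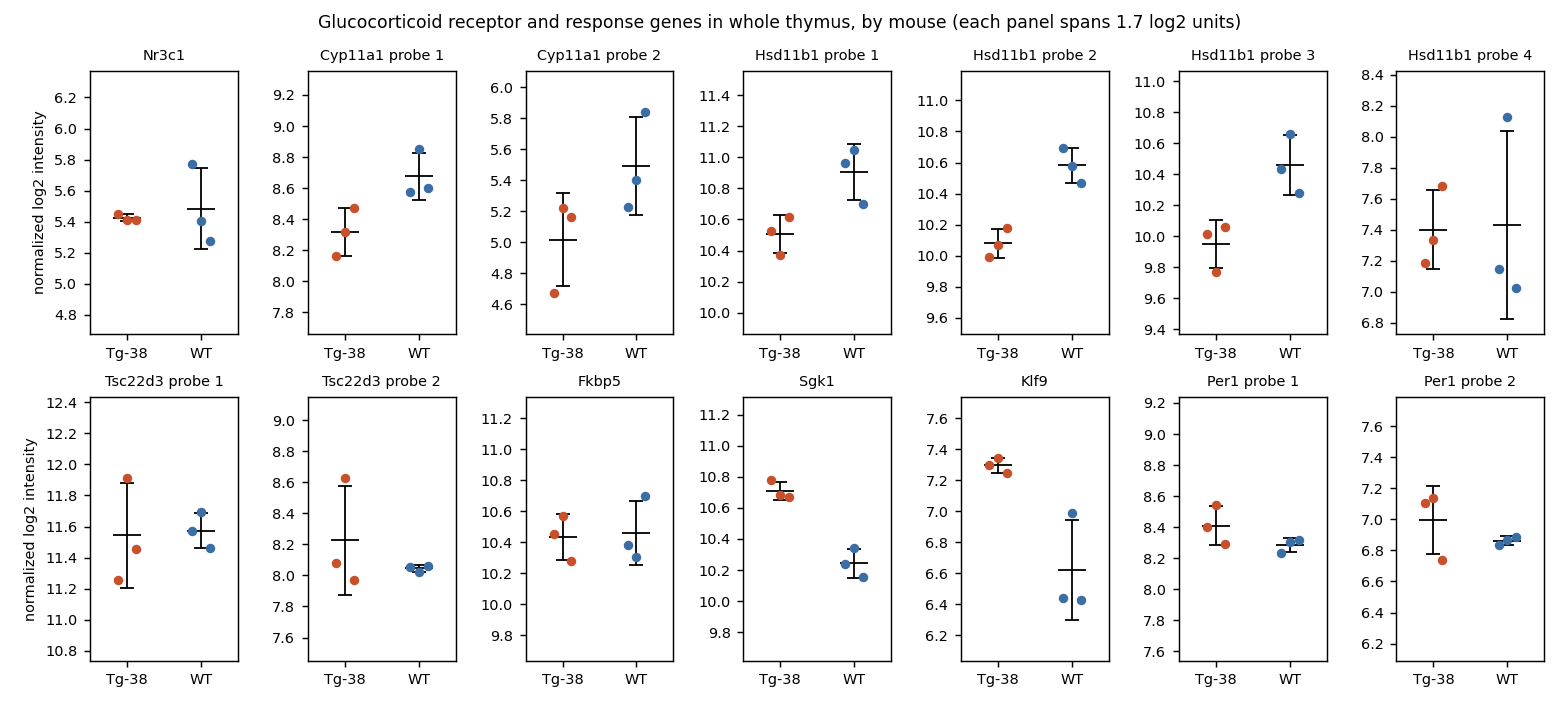
Normalized log2 intensity (vertical axes, each spanning the same range of log2 units) of the 14 kept member probes in each Tg-38 mouse (left, red) and WT mouse (right, blue), with the mean and SD of each group. The groups are apart for Cyp11a1 probes 1 and 2, Hsd11b1 probes 1 to 3, Sgk1 and Klf9, and overlap for the other 7 probes.

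Signals below are average bead intensities as the scanner gave them, in Tg-38 mice 1, 2 and 3 and then WT mice 1, 2 and 3, and probes of a gene are numbered from the brightest. Array medians were 129, 126 and 123 in Tg-38 and 140.7, 132.8 and 129 in WT, so scanner values ran slightly lower on the Tg-38 arrays. Changes are therefore given after background correction and quantile normalization, as Tg-38 minus WT on the log2 scale, and are relative to all probes. From 17972 to 18464 probes were detected on the Tg-38 arrays and 17674 to 18526 on the WT arrays. On the second principal component (21.7% of the variance) WT replicate 2 stood away from all other arrays, and calls that depend on it are named.

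Nr3c1, the receptor itself, was read by 1 probe, near the detection limit in both groups, and did not pass the test. The paper describes the receptor as highly expressed in DP thymocytes, and how well this probe reads its RNA was not tested. This single probe gave 148.2, 141.9 and 138.1 in Tg-38 thymus, against 178.5, 150.4 and 142.2 in WT thymus. The probe was detected on all 6 arrays, with detection p between 0.00321 and 0.03632, and its mean signal was 1.13 times the array median in Tg-38 and 1.17 times in WT. WT mouse 1 was the highest, and the other 5 mice lay close together. The normalized difference was -0.06 ± 0.14 (SE, n = 3 per group, adjusted p = 0.873 by limma), with a 95% interval of 0.770- to 1.198-fold. The lowest signals called detected were 132.1 to 138.1 on the Tg-38 arrays and 140.4 to 152.6 on the WT arrays. This close to background, the offset added in the correction understates a fold, and the interval does not bound the change of the RNA. Without WT replicate 1 the difference was 0.086, of the opposite sign. 

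The 5 genes whose pattern over the 6 arrays was most like that of Nr3c1 were Sugp1, Rab35, Tm9sf2, Slc5a12 and Sertad2. Their root mean square differences from Nr3c1, after each probe was centred on its own mean, were 0.0449 to 0.0503 log2 units. Nr3c1 itself varied by 0.153 about its mean, and 2267 other probes lay closer to Nr3c1 than that, so many other probes were also alike by this measure. None of the 5 genes has a difference between Tg-38 and WT of more than 0.08 in size. This follows from their choice by closeness to Nr3c1 on the same arrays and is not a result about them.

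Hsd11b1 encodes the enzyme that regenerates active corticosterone from its inert keto form inside the cell, and 3 of its 4 probes were lower in every Tg-38 mouse than in any WT mouse. Probe 1 read 1496.2, 1297.8 and 1479.8 in Tg-38, against 2573, 2377 and 1708.1 in WT. Probe 2 read 1076.6, 1079 and 1113.7 in Tg-38, against 2160.1, 1739.8 and 1455.8 in WT. Probe 3 read 1091.6, 895.8 and 1034.6 in Tg-38, against 1842.7, 1843.9 and 1304 in WT. On all 3 probes the Tg-38 mice lay closer together than the WT mice, and WT mouse 3 was the lowest of the WT mice, still above each Tg-38 mouse. 

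After normalization the Hsd11b1 differences were -0.40 ± 0.13 on probe 1 (SE, n = 3 per group, limma adjusted p = 0.173) and -0.50 ± 0.11 on probe 2 (limma adjusted p = 0.0803). On probe 3 the difference was -0.51 ± 0.14 (limma adjusted p = 0.118, n = 3 per group). These are 1.32-, 1.42- and 1.42-fold lower values in Tg-38, and their 95% intervals ended at -0.11, -0.24 and -0.20. Probe 2 stood at place 388 of 18352 when all kept probes were ordered by p. The dim probe 4 gave another picture, with 252.2, 250.2 and 272.9 in Tg-38 and 287.9, 397.2 and 229.5 in WT. Its groups overlapped, WT mouse 2 was far above the other WT mice, and the difference was -0.03 ± 0.27 (SE, n = 3 per group, limma adjusted p = 0.970). The 95% interval of probe 4, from -0.65 to 0.58, was wide and contains the differences of the other 3 probes. Without WT replicate 2 the difference of probe 4 was 0.32, of the opposite sign to the other 3 probes (limma adjusted p = 0.329).

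**Figure D2:**
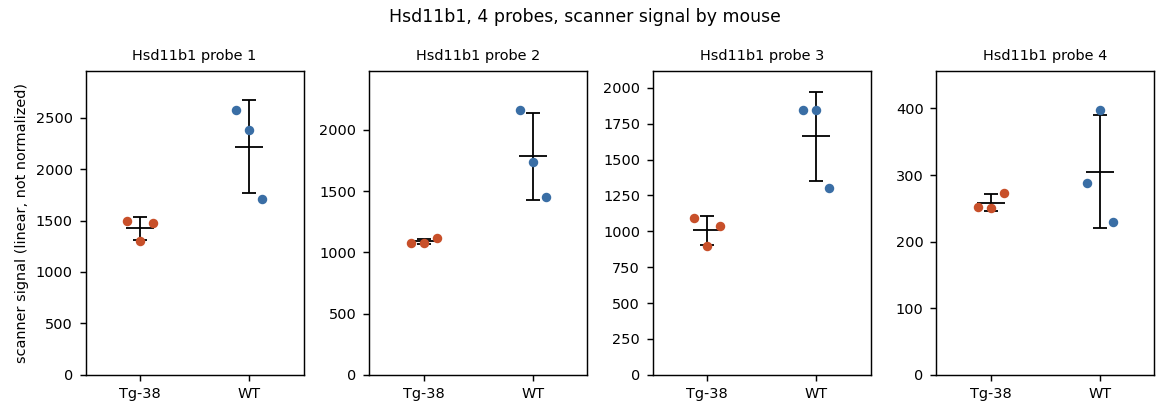
Scanner signal (linear, not normalized, axes from 0) of the 4 Hsd11b1 probes in each Tg-38 mouse (left) and WT mouse (right), with the mean and SD. The Tg-38 mice lie below all WT mice on probes 1 to 3, and on probe 4 the WT mice range from 229.5 to 397.2 around the Tg-38 mice.

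Cyp11a1, the mitochondrial enzyme that cleaves the side chain of cholesterol and opens steroid synthesis, had 1 clearly detected probe, and it too lay lower in Tg-38. Probe 1 read 389, 391.7 and 403.8 in Tg-38, against 587.3, 588.6 and 480.7 in WT. All 3 Tg-38 mice were below all 3 WT mice, with WT mouse 3 again the lowest of its group. The difference was -0.36 ± 0.13 (SE, n = 3 per group, limma adjusted p = 0.209), or 1.28-fold lower in Tg-38. Probe 2 was at the edge of detection, with 124.3, 136.9 and 131.9 in Tg-38 and 155.8, 150.4 and 159.7 in WT. It was detected in 1 of 3 Tg-38 mice and 3 of 3 WT mice, so it was kept mainly through the group where it was higher, and its difference of -0.47 ± 0.20 (SE, limma adjusted p = 0.267, n = 3 per group) adds little. Over 17 alternatives it ranged from -0.59 to -0.15, nearest 0 without background correction. Probe 3 was not detected on any array, with 114.5 to 126.1 in Tg-38 and 129.1 to 135.1 in WT, and no fold is given. In whole organ RNA, fewer cells that express these enzymes and less RNA per cell cannot be told apart.

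Most other genes of steroid synthesis and metabolism were not detected on enough arrays to be tested. Of 19 genes on the list, 16 had a probe and 4 were kept. Star, Nr5a1, Cyp17a1, Cyp21a1, Hsd3b1 and Cyp11b1, which carry cholesterol into mitochondria, control the pathway or catalyse its later steps, were among the 12 that were not. So was Hsd11b2, an enzyme of hormone metabolism. No kept gene passed, adjusted or unadjusted, against 1.29% and 17.5% of the 9782 genes tested, each by its brightest kept probe. The median difference of the 4 genes was -0.16, against 0.02 over all genes. Tspo, a cholesterol-binding protein of the outer mitochondrial membrane, had 11.18, 10.99 and 11.04 normalized log2 units in Tg-38 and 11.21, 11.47 and 11.22 in WT, a difference of -0.23 ± 0.12 (SE, n = 3 per group, limma adjusted p = 0.369). Cyp11b2, aldosterone synthase of the adrenal, was detected on 3 of 3 Tg-38 arrays and 0 of 3 WT arrays, at least 1.197-fold higher in Tg-38 against the detection level (limma adjusted p = 0.305, n = 3 per group). It met the filter through the Tg-38 mice alone, and no direction is drawn from it. Its normalized values stood at 5.16, 5.42 and 5.64 in Tg-38 and 5.08, 5.05 and 5.18 in WT, which overlap. The scanner signals, 139.6, 142.2 and 144 in Tg-38 and 151, 140.3 and 139.5 in WT, overlapped too, with WT mouse 1 the highest. The bound sets the mean of the Tg-38 mice against the lowest signal called detected on each WT array, and takes no account of the spread between mice.

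Sgk1, a serum- and glucocorticoid-induced kinase that acts on ion channels and Foxo factors, had the smallest p among the response genes and lay higher in Tg-38. The scanner signal was 1759.2, 1600.1 and 1527.3 in Tg-38, against 1610, 1490.7 and 1207 in WT, and these raw values overlapped. After normalization the values were 10.78, 10.68 and 10.67 in Tg-38 and 10.24, 10.34 and 10.15 in WT, and the groups no longer overlapped. The difference was 0.47 ± 0.11 (SE, n = 3 per group, limma adjusted p = 0.0827), or 1.38-fold, and it stood at place 413 of 18352. Its size depended on the scaling: with the arrays scaled to a common median the difference was 0.27, in a table whose median was -0.14, which leaves 0.41 relative to all probes.

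Klf9, a zinc finger transcription factor induced directly by the receptor, also lay higher in Tg-38. Its signals were low, at 262.7, 251.2 and 228.2 in Tg-38 and 219, 238.1 and 187.9 in WT, and overlapped before normalization. The normalized values were 7.30, 7.34 and 7.25 in Tg-38, against 6.44, 6.99 and 6.43 in WT. The Tg-38 mice were closely grouped, while WT mouse 2 stood well above the other WT mice and just below the lowest Tg-38 mouse. The difference was 0.68 ± 0.16 (SE, n = 3 per group, limma adjusted p = 0.0878), or 1.597-fold. Without WT replicate 2, Klf9 passed the threshold with a difference of 0.86 (limma adjusted p = 0.0157), on 3 Tg-38 and 2 WT mice. Without background correction the difference was 0.36 and with the authors' processed values 0.39 (limma adjusted p = 0.0552 and 0.0539), over 1.5 times smaller. To those processed values 16 was added before the log2, which understates the fold of a dim probe. The study's own list has this probe, under the symbol Bteb1, among the genes that rose over 1.5-fold in Tg-38.

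Tsc22d3 and Fkbp5, the most widely used markers of receptor activity, gave no difference beyond the spread between mice. Tsc22d3 encodes GILZ, a leucine zipper protein that mediates part of the anti-inflammatory action. Its probe 1 read 2407.1, 3641.2 and 2595.9 in Tg-38, against 3849.9, 3660.9 and 2804.2 in WT. The difference was -0.03 ± 0.17 (SE, n = 3 per group, limma adjusted p = 0.949), with a 95% interval from -0.41 to 0.35. Probe 2, which the annotation lists under another transcript than probe 1, read 372.5, 461.4 and 314.4 in Tg-38 and 442.7, 376.6 and 363.1 in WT. Its normalized difference was 0.18 ± 0.17 (SE, n = 3 per group, limma adjusted p = 0.635). On both probes Tg-38 mouse 2 had the highest normalized value of the 6 mice, and the SD over the Tg-38 mice was 0.34 and 0.35 log2 units on probes 1 and 2, against 0.12 and 0.022 over the WT mice. Without Tg-38 replicate 2 the difference on probe 2 was -0.022. Probe 3 was not detected on any array, with 112 to 123.9 in Tg-38 and 119.7 to 137.1 in WT.

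Fkbp5 encodes a co-chaperone that binds the receptor complex and lowers its affinity for hormone, in a short negative feedback loop. It read 1433.6, 1487.3 and 1181.3 in Tg-38, against 1779.6, 1453.7 and 1699.4 in WT. The normalized values were 10.45, 10.57 and 10.28 in Tg-38 and 10.38, 10.31 and 10.70 in WT, with WT mouse 3 the highest and Tg-38 mouse 3 the lowest. The difference was -0.03 ± 0.14 (SE, n = 3 per group, limma adjusted p = 0.941), with a 95% interval from -0.34 to 0.28. 

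Per1, a repressor of the circadian clock that glucocorticoids also induce directly, did not differ beyond the spread between mice. Probe 1 read 438.8, 440.2 and 367.9 in Tg-38 and 487, 438.4 and 410.5 in WT, and its normalized difference was 0.12 ± 0.11 (SE, n = 3 per group, limma adjusted p = 0.615), with a 95% interval from -0.13 to 0.38. Probe 2 read 244.1, 230.4 and 191.1 in Tg-38 and 253.2, 227.5 and 218.3 in WT, with a difference of 0.13 ± 0.13 (SE, n = 3 per group, limma adjusted p = 0.654). With the arrays scaled to a common median, which moved the median of all probes to -0.14, the differences were -0.042 and -7.347e-06, or 0.10 and 0.14 relative to all probes. Tg-38 mouse 3 was the lowest mouse on both probes in the scanner signal. Probe 3 was not detected on any array, with 108.5 to 119.2 in Tg-38 and 116.3 to 121.6 in WT.

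**Figure D3:**
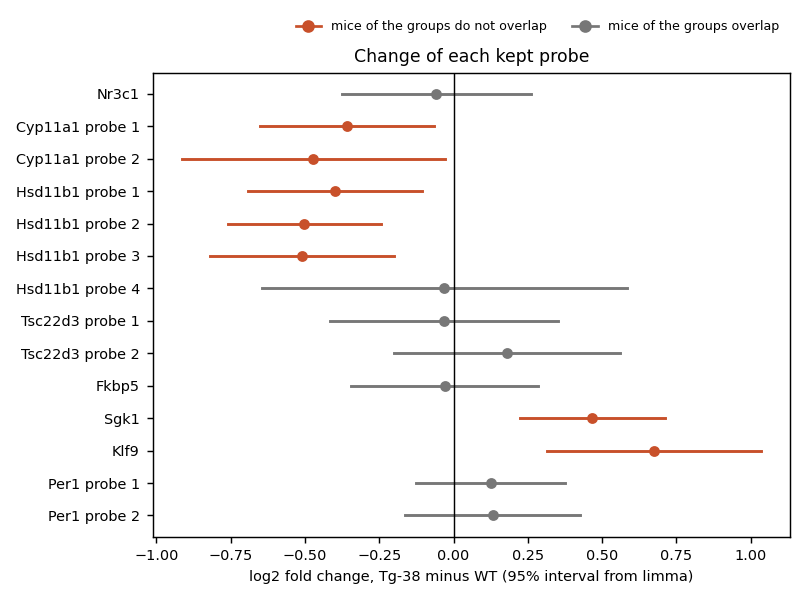
Log2 fold change (horizontal axis, Tg-38 minus WT) of the 14 kept member probes with the 95% interval from limma. Red marks the 7 probes whose mice do not overlap between groups, and the intervals of the other 7 probes include 0.

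By their brightest probes the 5 response genes had differences from -0.03 in Tsc22d3 and Fkbp5 to 0.68 in Klf9. Whether Sgk1 and Klf9 differed from Tsc22d3 and Fkbp5 in their response to the transgene was not tested.

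The promoters were searched for the receptor's DNA element because Sgk1 carries it close to a start site. The match in Sgk1 was thus the reason for the search and is not a result about the members. In RefSeq windows from 250 bases before to 50 bases after each start site (GRCm38.p6), 16 windows of 7 members were searched, and Nr3c1 was left out. Sgk1 had more of these windows than any other member. The palindrome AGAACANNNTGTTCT, which reads the same on both strands, was found in 1 of these windows, of Sgk1, and in 3 of 32851 windows of all genes (0.00913%). Its half-site, AGAACA or TGTTCT on either strand and counted also inside the palindrome, was found in 4 of 16 windows, 3 of Sgk1 and 1 of Tsc22d3, and in 19% of all windows. The Sgk1 window at chr10:21993640-21993939, plus strand, is shown with the palindrome in capitals, at 21993701 to 21993715.
Sgk1 window: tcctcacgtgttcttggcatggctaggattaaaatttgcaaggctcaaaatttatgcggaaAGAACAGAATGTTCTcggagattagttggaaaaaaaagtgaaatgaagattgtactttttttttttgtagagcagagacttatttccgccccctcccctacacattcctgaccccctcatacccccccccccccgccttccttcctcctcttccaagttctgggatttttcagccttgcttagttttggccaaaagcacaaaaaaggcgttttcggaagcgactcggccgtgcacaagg
A match is only a run of letters in this window, and no binding was measured here.

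Beyond the members, 1 of 24 kept genes on a list of 33 other glucocorticoid-induced genes passed the adjusted threshold, against 1.05% of all genes called higher and 0.235% called lower. This was Il7r, the receptor chain for the survival cytokine IL-7, which rose in Tg-38 thymus. Its normalized values were 10.44, 10.15 and 10.10 in Tg-38, against 9.40, 9.11 and 9.28 in WT, with no overlap. The difference was 0.97 ± 0.13 (SE, n = 3 per group, limma adjusted p = 0.0236), or 1.95-fold. Il7r is also on the list of mature single positive thymocyte markers. The call was lost without a detection filter, with the replicate block, by the methods' t-test and without normalization between arrays, and also when any array other than WT replicate 2 was left out, each of which left 0 genes called on the list.

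The list as a whole had no common direction, with 12 genes above and 12 below 0 and a median of -0.02, against 0.02 over all genes. At an unadjusted p under 0.05, 5 genes were higher, against 10.6% of all genes, and 4 were lower, against 6.94%. Cdkn1c, a cyclin-dependent kinase inhibitor, had a difference of 0.61 ± 0.14 and Mt1, a metallothionein, of 0.48 ± 0.12 (SE, n = 3 per group, limma adjusted p = 0.0867 and 0.112). Cxcr4, the chemokine receptor that retains thymocytes in the cortex, had a difference of -0.41 ± 0.14 (SE, n = 3 per group, limma adjusted p = 0.181), and Nfkbia, the inhibitor of NF-κB that glucocorticoids induce, of -0.26 ± 0.10 (adjusted p = 0.247). Dusp1, Ddit4, Zfp36 and Txnip lay between 0.00254 and 0.19. On the other side of 0, Bcl6, Btg1, Tnfaip3 and Bcl2l11 lay between -0.33 and -0.06. The values of all genes named in this paragraph are given outside the rule for named genes, after they were seen.

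Among 13 kept genes of 19 that hold, fold or assist the receptor, no gene passed the adjusted threshold, and the median was 0.01. Stub1, an E3 ligase that works with the chaperones, had the smallest p of the higher genes, at 0.24 ± 0.10 (SE, n = 3 per group, limma adjusted p = 0.277). Smarca4, the ATPase of the SWI/SNF remodeller, had the smallest of the lower genes, at -0.25 ± 0.11 (SE, n = 3 per group, limma adjusted p = 0.291). The chaperones Hsp90aa1 and Hspa8 and the co-chaperone Fkbp4 had differences between -0.07 and 0.05. At an unadjusted p, 1 gene was higher and 1 lower, near the 10.6% and 6.94% of all genes.

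Of 14 genes that glucocorticoids repress in inflammation, 13 had a probe and 5 were kept. No gene passed, and the median was 0.40 as reported and 0.14 to 0.47 over the alternatives, lowest without background correction. With no adjustment, 2 genes had a p under 0.05 in the higher direction and 1 in the lower, against 10.6% and 6.94% of all genes. Icam1, an adhesion molecule, had 9.32, 8.96 and 9.43 normalized log2 units in Tg-38 and 8.97, 8.72 and 8.81 in WT, which overlap slightly (difference 0.40 ± 0.14, SE, n = 3 per group, limma adjusted p = 0.212). Il4, a T cell cytokine, was detected in 1 of 3 Tg-38 mice and 3 of 3 WT mice and had a difference of -0.62 ± 0.16 (SE, n = 3 per group, limma adjusted p = 0.117). Il6, Ifng, Ccl2, Cxcl10, Nos2 and Ptgs2 were not kept.

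Clock genes, the circuit to which Per1 belongs, had 12 of 19 kept, with differences below 0 in 9 of 12 and a median of -0.15. None passed the adjusted threshold and 2 were lower at an unadjusted p under 0.05, against 6.94% of all genes. Arntl (Bmal1), the activator of the clock, had 9.09, 9.17 and 9.09 in Tg-38 and 9.53, 9.41 and 9.49 in WT, a difference of -0.36 ± 0.10 (SE, n = 3 per group, limma adjusted p = 0.134). Rora, an activator of Arntl, had a difference of -0.33 ± 0.14 (SE, n = 3 per group, limma adjusted p = 0.273). Dbp, an output of the clock, and Per2, a repressor like Per1, had differences of 0.06 and -0.12. The hours at which the thymi were taken are not given in the labels.

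**Figure D4:**
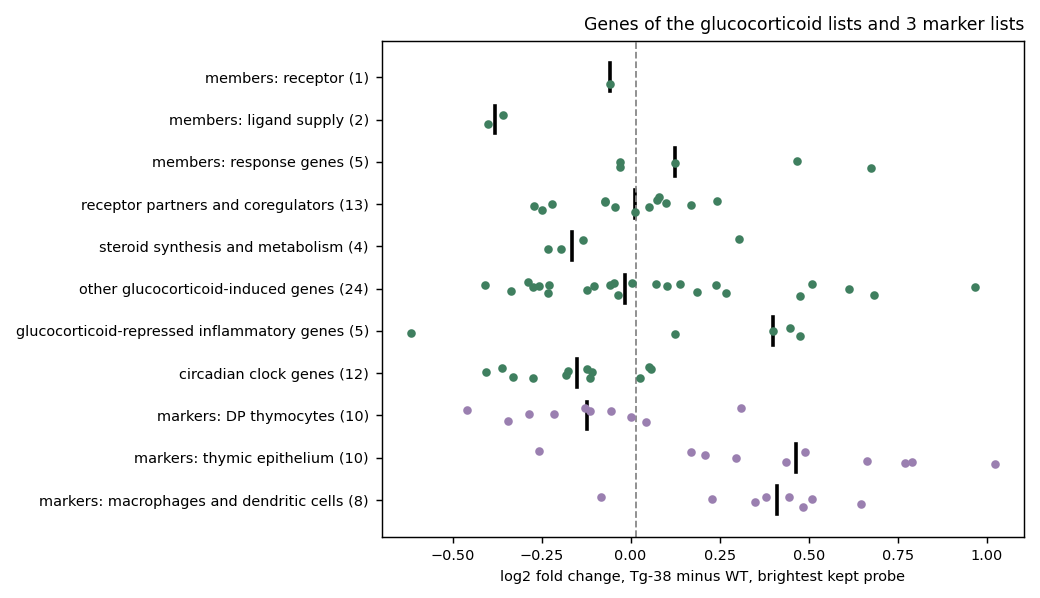
Log2 fold change (horizontal axis, Tg-38 minus WT) of each kept gene by its brightest probe, for the members by role, the 5 pathway lists and 3 marker lists, with the number of kept genes in parentheses. Short black lines mark the list medians and the dashed line the median of all genes (0.02), and the other glucocorticoid-induced genes spread from -0.41 to 0.97 about it.

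Few markers of single cell types passed the test, but the medians of several marker lists lay away from the 0.02 of all genes, and their part in the member differences was not tested. At an unadjusted p under 0.05, 10.6% of all genes were higher and 6.94% lower, as a background for the counts of markers. Of 14 DP thymocyte markers 10 were kept, with a median of -0.12, and 2 were lower at an unadjusted p under 0.05. The summed normalized intensity of the DP markers was 50160.9 to 54696.9 in the Tg-38 mice and 57544.8 to 59006.5 in the WT mice. Of the 10 kept markers 8 lay below 0, the lowest being Cd4 at -0.46 and Rag1 at -0.34. The other 2 lay above 0, with Ptcra the highest at 0.31. Cd8b1, the brightest marker, weighs most in the sums, and it differed by -0.13. Thymic epithelial markers had 10 of 13 kept, a median of 0.46 and 6 higher genes at an unadjusted p. Of the 10 kept markers 9 lay above 0 and 1 below. The sums were 5139.33 to 5873.15 in Tg-38 and 3433.69 to 6269.26 in WT, which overlap. Ccl25, the brightest of these markers, weighs most in the sums. It had 11.68, 11.48 and 11.71 normalized log2 units in Tg-38 and 11.27, 12.06 and 10.90 in WT, highest in WT mouse 2. Foxn1, the regulator that defines thymic epithelium, was not kept, and neither were Epcam and Krt5. 

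Macrophage and dendritic cell markers had 8 of 15 kept and a median of 0.41, with 4 higher genes at an unadjusted p. Their sums were 2820.99 to 3001.57 in Tg-38, above the 1982.6 to 2252.77 in WT. The 2 kept red cell markers of 5 had a median of -1.74, with sums of 3846.1 to 9467.81 in Tg-38 and 10955 to 25543.8 in WT. The 3 kept markers of 5 for mature single positive thymocytes had a median of 0.51 and sums of 2572.01 to 3322.47 in Tg-38 and 1629.75 to 2019.65 in WT. Of 2 kept NK cell markers, Klrd1 rose by 2.16 (limma adjusted p = 0.00151, n = 3 per group) and Klrb1c differed by 0.03. In fibroblasts 2 of 7 markers were kept (median 0.26, and -0.0055 without WT replicate 1), in endothelium 3 of 6 (-0.05), in B cells 1 of 5 (-0.55) and in fat 1 of 5 (-0.24), and none of these genes passed by its brightest probe, while 1 of the 2 kept B cell probes passed, lower in Tg-38. Apart from Klrd1 and Il7r, no marker passed the adjusted threshold by its brightest probe.

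The direction of the 7 separated member probes did not change in any alternative in which each could be tested, but 4 of them crossed the adjusted threshold in some. Hsd11b1 probe 2 ranged from -0.74 to -0.44 over 18 alternatives, with limma adjusted p from 0.0133 to 0.235, and passed in 5. Hsd11b1 probe 3 ranged from -0.76 to -0.41 (adjusted p from 0.0290 to 0.263) and also passed in 5. Sgk1 ranged from 0.21 to 0.51 (adjusted p from 0.0136 to 0.477) and passed in 4. Klf9 ranged from 0.36 to 0.86 (adjusted p from 0.0157 to 0.262) and passed in 4. Hsd11b1 probe 1 and both kept Cyp11a1 probes passed in 0, with lowest adjusted p of 0.0585, 0.0853 and 0.118.

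**Figure D5:**
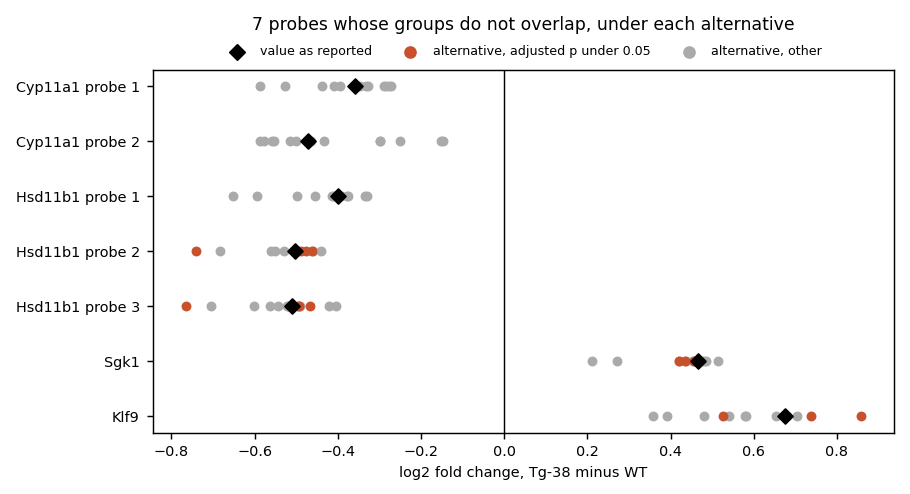
Log2 fold change (horizontal axis, Tg-38 minus WT) of the 7 member probes whose groups do not overlap, as reported (black diamonds) and under each alternative (circles, red where the adjusted p is under 0.05). The circles of each probe stay on one side of 0, and red circles occur for Hsd11b1 probes 2 and 3, Sgk1 and Klf9 only.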

How the data were processed

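Per the labels, thymus RNA was biotin-labelled and the arrays were read with GenomeStudio (version not given in the sources used here). The deposited scanner table gives, per probe and array, a linear signal intensity without normalization between arrays, and a detection p-value that the authors' software computed against negative controls. The authors' processed intensity table was used only as an alternative, with 16 added to its values before the log2. Its values are linear, with column medians of 1.73 to 2.03, and how the background was removed and the arrays rescaled is not given in the sources used here.

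From the scanner table, neqc of limma 3.58.1 (R 4.3.3, statmod 1.5.0) corrected the background with the detection p-values, added an offset of 16 and quantile-normalized the log2 values. A probe was kept where at least 3 of 6 arrays had its detection p under 0.05. Listed genes that were not kept include some without a probe. Tg-38 was compared with WT by lmFit and eBayes (4 residual and 4.93 prior degrees of freedom), two-sided, with Benjamini-Hochberg adjustment over the 18352 kept probes, at a threshold of 0.05. No set test was run. A gene not detected in one group has only a lower bound for its fold, against the detection level. The platform annotation pairs 34885 probes with 1 gene and 18 with several, and leaves 10378 of 45281 unnamed. Columns left unmapped numbered 0.

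The members, the 5 pathway lists and the marker lists were chosen with earlier results of these data known. The text names every member probe, from each list every gene past the adjusted threshold and otherwise the 2 with the smallest p, and the 5 genes most like Nr3c1. Other genes are named as list members and not as findings. The procedure was tested on simulated data. Alternatives covered background correction, normalization, detection filter, processed values, variance model, replicate block, the methods' t-test and leaving out each array, and one without normalization between arrays, added after the data were seen. miRNA and promoter sequences are those of RefSeq (GRCm38.p6). The promoter of Nr3c1 is not used here. Figures were drawn with matplotlib 3.10.9.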

Additional observations from a re-analysis of the deposited data

How the results depend on the processing

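The count of member probes past the adjusted threshold, 0 as reported, was 3 without background correction and with the authors' processed values, 4 with an offset of 50 and with an intensity trend, 1 with array weights and 2 without normalization between arrays, and 0 to 1 when single arrays were left out (1 without WT replicate 2). The 7 member probes past an unadjusted p under 0.05 and 1.2-fold stayed within 1.5 times that count in all alternatives. Over all kept probes 202 passed as reported (72.8% higher in Tg-38), 397 without background correction, 442 with an offset of 50, 48 without a detection filter, 445 with the processed values, 481 with an intensity trend, 27 with the replicate block, 1 by the methods' t-test, and 15 to 315 without single arrays (315 without WT replicate 2, 15 without Tg-38 replicate 3, and 19 to 36 without each of the other 4). Median scaling gave 220 probes (35.9% higher) and moved the median of all probes to -0.14, and the added alternative without normalization between arrays gave 295 (23.1% higher) and a median of -0.20. Among the other glucocorticoid-induced genes, each by its brightest probe, 1 passed as reported. The count was 3 without background correction, with an offset of 50, with the processed values and with an intensity trend. It was 0 without a detection filter, with the replicate block, by the methods' t-test and without normalization between arrays. Without single arrays it was 0 to 1 (1 without WT replicate 2 only). Over all kept probes of the list 3 probes passed, which is a count of probes and not of genes. Among the clock genes, 0 as reported, 1 passed without background correction and with the processed values.

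Of 251 values of member probes under alternatives, 217 kept their direction and side of the threshold, 18 newly passed it and 16 changed sign, all of them in probes with a reported difference of at most 0.18 in size. The last were Per1 probe 1 (-0.042 with median scaling, -0.10 without normalization between arrays) and probe 2 (-7.347e-06 and -0.059), Hsd11b1 probe 4 (0.066 with array weights, -0.23 to 0.32 without single arrays), Tsc22d3 probe 1 (-0.22 to 0.11 without single arrays), Tsc22d3 probe 2 (-0.043 without normalization between arrays, -0.022 to 0.31 without single arrays), Fkbp5 (-0.11 to 0.088) and Nr3c1 (-0.16 to 0.086). Relative to the median of all probes, which itself fell below 0 under these scalings, Per1 kept its sign with median scaling (0.10 and 0.14) and, like Tsc22d3 probe 2 (0.16), without normalization between arrays. The cause of the other sign changes was not tested. Cyp11a1 probe 2 gave no value where detection on all arrays was required. The deviations of same-numbered mice from their group means had correlations of 0.0347, -0.1171 and -0.0971. Those of differently numbered mice ran from -0.1201 to 0.1862. With 3 mice per group these values cannot decide whether the numbers pair the samples, which were compared unpaired. The replicate block called 0 member probes.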
